A study of Mus musculus with 12 samples.

Results

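The T cell receptor beta variable (Trbv) genes were examined in CD45-selected cells of 6 mouse mammary tumours. All genes whose symbol begins with Trbv or Trav were taken, and their use was read in the cells that the authors annotated as T cells, by subtype and tumour. The tables held 20 such genes among 18574, and all 20 were Trbv genes; Trav genes were not analysed here. The tumours grew from the BALB/c mammary carcinoma line 4T1, either the parental line or 1 of 5 populations each derived from a single cell (Clone E, Clone EM1, Clone EM2, Clone EM3 and Clone M), which stand for epithelial, intermediate and mesenchymal states according to the study's description. The labels do not say in words which clone has which state. Hosts were female BALB/c mice aged 9 to 11 weeks, and the tumours grew in the mammary fat pad. There was 1 tumour per group, given as a CD45 library and a Total library of the same tumour, so that no difference between tumours has a replicate check and no test across tumours was made. Intervals are exact 95% limits (Clopper-Pearson for shares, Poisson for summed counts) and cover counting error only.

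A T cell builds its beta chain by joining 1 variable, 1 diversity and 1 joining segment to a constant region, Trbc1 or Trbc2, and allelic exclusion usually leaves 1 productive beta chain per cell. The progeny of 1 T cell carry the same joined gene, so cell division after antigen contact raises the share of a variable gene among the cells. The joint itself, which identifies a clone, is not part of these gene counts: cells that share a Trbv gene may belong to 1 clone or to several, and the counts cannot tell these apart. Superantigens and the selection of the repertoire in the thymus also shape the use of variable genes in each mouse strain.

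The 20 members lie on chromosome 6 in the mm10 (GRCm38) build, 19 of them on the plus strand and Trbv31 on the minus strand, and each has 2 exons, a leader exon and a variable exon, in GENCODE release M21. That annotation has 22 functional Trbv genes. The 2 others, Trbv13-2 (a V-beta 8 gene like Trbv13-1 and Trbv13-3) and Trbv15, were not analysed here in the CD45 libraries. Cells that use them could not be assigned to their own gene, so every share below is of the measured genes only. Across the annotated T cells Trbv14 had the most UMIs (unique molecular identifiers, one per captured molecule), 4892 in 724 cells, and Trbv19 was found in the most cells, 2733 UMIs in 1026 cells. Trbv21 and Trbv23 had 5 UMIs each, and Trbv30 had 18. Counts above 0 were present in all 6 CD45 libraries for 15 members; Trbv12-1, Trbv21, Trbv23, Trbv26 and Trbv30 are listed at 0 in at least 1 library, which may reflect a filter made before deposit.

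The variable exons of the 4 genes on which the results turn are shown to display how far the genes differ; which stretch of each transcript was counted is not given in the sources used here. Each is read 5′ to 3′ from the GENCODE M21 transcript, and capitals mark the bases from the conserved cysteine codon to the germline end of the segment, the part that enters the third complementarity-determining region. Trbv13-3 lies at chr6:41130292-41130585, Trbv14 at chr6:41135320-41135616, Trbv19 at chr6:41178749-41179048 (without the first 3 bases of its exon) and Trbv29 at chr6:41271587-41271881, all on the plus strand.
Trbv13-3: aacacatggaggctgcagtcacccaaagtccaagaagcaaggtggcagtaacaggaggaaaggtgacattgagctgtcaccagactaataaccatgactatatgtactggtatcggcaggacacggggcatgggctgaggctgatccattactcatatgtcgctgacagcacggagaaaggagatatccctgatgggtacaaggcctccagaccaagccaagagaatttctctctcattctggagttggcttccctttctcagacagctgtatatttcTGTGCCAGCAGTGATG
Trbv14: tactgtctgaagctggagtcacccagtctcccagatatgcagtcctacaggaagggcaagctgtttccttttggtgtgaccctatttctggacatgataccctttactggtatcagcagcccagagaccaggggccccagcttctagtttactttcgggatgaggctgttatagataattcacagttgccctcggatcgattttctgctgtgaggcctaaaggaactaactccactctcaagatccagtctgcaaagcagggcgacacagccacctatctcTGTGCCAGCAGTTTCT
Trbv19: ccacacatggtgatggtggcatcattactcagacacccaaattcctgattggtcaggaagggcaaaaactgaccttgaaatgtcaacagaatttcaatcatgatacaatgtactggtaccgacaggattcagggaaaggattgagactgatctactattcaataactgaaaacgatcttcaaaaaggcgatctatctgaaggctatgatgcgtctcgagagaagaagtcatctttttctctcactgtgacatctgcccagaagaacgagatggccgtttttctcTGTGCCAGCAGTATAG
Trbv29: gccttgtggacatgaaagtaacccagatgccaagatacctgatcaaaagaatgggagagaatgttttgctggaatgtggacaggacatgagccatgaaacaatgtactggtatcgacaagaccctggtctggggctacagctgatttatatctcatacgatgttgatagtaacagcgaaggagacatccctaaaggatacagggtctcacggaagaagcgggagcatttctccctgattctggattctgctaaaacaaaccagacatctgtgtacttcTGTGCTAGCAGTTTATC
The germline ends of Trbv13-3, Trbv14 and Trbv19 begin with the same letters and differ only near the joint, whereas the rest of the exons differ widely. Over the 190 pairs of members the median identity was 55.6% and the median longest shared run was 10 bases. Only 2 pairs reached 80% identity: Trbv12-1 with Trbv12-2 (89.1%, longest shared run 44 bases) and Trbv13-1 with Trbv13-3 (86.1%, 34 bases). Counts within these 2 pairs are less certain, since the authors' counting could split or merge them. Trbc1 and Trbc2 were 95.6% identical over their coding sequence, with a shared run of 259 bases.

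Among 54955 cells of the CD45 libraries, 9884 were annotated as T cells and 1885 as Gzmb+ Cd8+ T cells. Library totals ranged from 28083101 UMIs in the Parental 4T1 tumour to 57116299 in Clone EM3. After calls of likely doublets were left out (9 of the T cells, 3 of them Gzmb+ Cd8+ in Clone EM1), the Gzmb+ Cd8+ class held 561 cells in Clone E, 687 in Clone EM1, 252 in Clone EM2, 311 in Clone EM3 and 63 in Clone M. The Parental 4T1 tumour had 8 such cells, of which 7 could be assigned to a gene, and its values are given without comparison. In Clones E to M the class carried Cd8a at 560 to 1230.2 CPM (UMIs of the gene per 1e6 UMIs of the class) and Cd3e at 1252 to 1832 CPM, against 92 to 311 CPM of Cd8a in their Cd44- Cd4+ T cells. Gzmb, a granule protease of killer cells, stood at 574 to 989.6 CPM in the class and at 227 to 560.4 CPM in Lef1+ Cd8+ T cells of these 5 tumours. In all annotated T cells outside the class it stood at 241 to 429 CPM, and the values were closest in Clone EM3 (574 against 407 CPM). The marker sums of other cell types in the class were 0 to 10.9 CPM for 4 B cell markers and 0 to 19 CPM for 3 tumour markers in these tumours, and 1 UMI (80.9 CPM) of a tumour marker in the 8 Parental 4T1 cells. They were 1186 to 2243 CPM for 4 macrophage markers and 891 to 1717 CPM for 4 granulocyte markers. For 3 NK cell markers they were 104 to 385 CPM, against 114 to 263 CPM in Lef1+ Cd8+ T cells and 888 to 2175 CPM in NK cells, with 1 of the 3 markers at 0 in the class in each of the 5 tumours. The subtypes are the authors' annotation, and whether Trbv genes entered their clustering is not given in the sources used here. By their 16-base droplet barcodes, 14 pairs of libraries shared 818 to 1760 barcodes, as libraries pooled in 1 capture well do, and the other 52 pairs shared 46 to 211. The 4 libraries of Clones E and EM3 formed one such set and the 4 of Clones EM1 and EM2 another, while those of Clone M and of the Parental 4T1 tumour shared barcodes at that level only with each other within the tumour. These sets are read from the barcodes alone. Cells whose 16-base barcode also occurred in another library of the set were then left out (178 of 561 Gzmb+ Cd8+ T cells in Clone E, 233 of 687 in Clone EM1). Without these cells of shared droplets the leading share of UMIs given below was 41.5% in Clone E, 77.0% in Clone EM1, 34.9% in Clone EM2, 52.5% in Clone EM3 and 39.6% in Clone M.

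A Trbv UMI was found in most T cells and in few other cells. In Gzmb+ Cd8+ T cells 1504 of 1882 cells (79.9%) held one, in Lef1+ Cd8+ T cells 644 of 969 (66.5%), and in Foxp3+ Cd4+ T cells, the regulatory subset, 637 of 1269 (50.2%). The share was 3.13% in macrophages, which had the deepest profiles (median 5113.5 to 7643.5 UMIs per cell over tumours, against 1134 to 2211 in the Gzmb+ Cd8+ class), 1.77% in granulocytes and 4.68% in B cells, which should lack the genes. Of the 157 Trbv UMIs in macrophages of Clone EM1, 65 (41.4%) were Trbv14, as in its T cells. Trdc+ DN T cells, the class of the gamma-delta constant gene Trdc, held a Trbv UMI in 11.1 to 83.3% of cells over tumours, with 25 cells at most in a tumour. Other T cells below are all annotated T cells outside the Gzmb+ Cd8+ class, and 6523 of these 7993 cells belonged to the CD4 subtypes. Summed over the 20 members, the level was 3187 CPM (3072 to 3304) in the Gzmb+ Cd8+ class of Clone EM1 and 1416 CPM in its other T cells. It was 1798 CPM (1705 to 1894) against 969.6 CPM in Clone EM3 and 1655 CPM (1517 to 1803) against 1096 CPM in Clone EM2. In Clone E the intervals of the classes overlapped, at 1076 CPM (1019 to 1135) and 1069 CPM (1028 to 1111). The sums are weighted to single genes and do not show a rise of the family. Trbv14 alone was at 2514 CPM in the Gzmb+ Cd8+ class of Clone EM1 against 305 CPM in other T cells. In Clone EM3 it was at 909 against 101 CPM, and in Clone EM2 Trbv19 was at 534 against 229 CPM. Thinned to 1000 UMIs per cell, the expected share of Gzmb+ Cd8+ T cells with a Trbv UMI was 85.4% in Clone EM1 and 61.7 to 68.7% in Clones E, EM2, EM3 and M; shallower cells were left out, 247 of them in Clone EM1, 95 in Clone EM2, 15 in Clone E and 6 each in Clones EM3 and M.

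Trbv13-3 in Clone E, Trbv14 in Clone EM1 and Trbv19 in Clones EM2 and M each led more Gzmb+ Cd8+ T cells than any other member, and in Clone EM3 Trbv14 and Trbv29 were close together at the top. To avoid weighting cells by their RNA, each cell was counted once, for the Trbv gene with most UMIs in it (ties were left out); such a cell is said to be led by that gene. Trbv13-3, of the V-beta 8 family, led 186 of 401 assigned Gzmb+ Cd8+ T cells in Clone E (46.4%, 41.4 to 51.4). It led 7.32% of the other T cells of that tumour, and the difference was 39.1 percentage points (33.7 to 44.4). Trbv14 led 328 of 556 cells in Clone EM1 (59.0%, 54.8 to 63.1) against 8.55% of other T cells, a difference of 50.4 points (45.9 to 54.8). Trbv14 also led 68 of 258 cells in Clone EM3 (26.4%, 21.1 to 32.2) against 5.24%, a difference of 21.1 points (15.6 to 27.1). Trbv19 led 43 of 155 cells in Clone EM2 (27.7%, 20.9 to 35.5) against 16.5%, a difference of 11.2 points (3.82 to 19.4). In Clone M Trbv19 led 17 of 40 cells (42.5%, 27.0 to 59.1) against 12.3%, a difference of 30.2 points (14.2 to 47.1). The 7 assigned Parental 4T1 cells were led by Trbv19 (3 cells), Trbv29 (3 cells) and Trbv13-1 (1 cell).

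**Figure D1:**
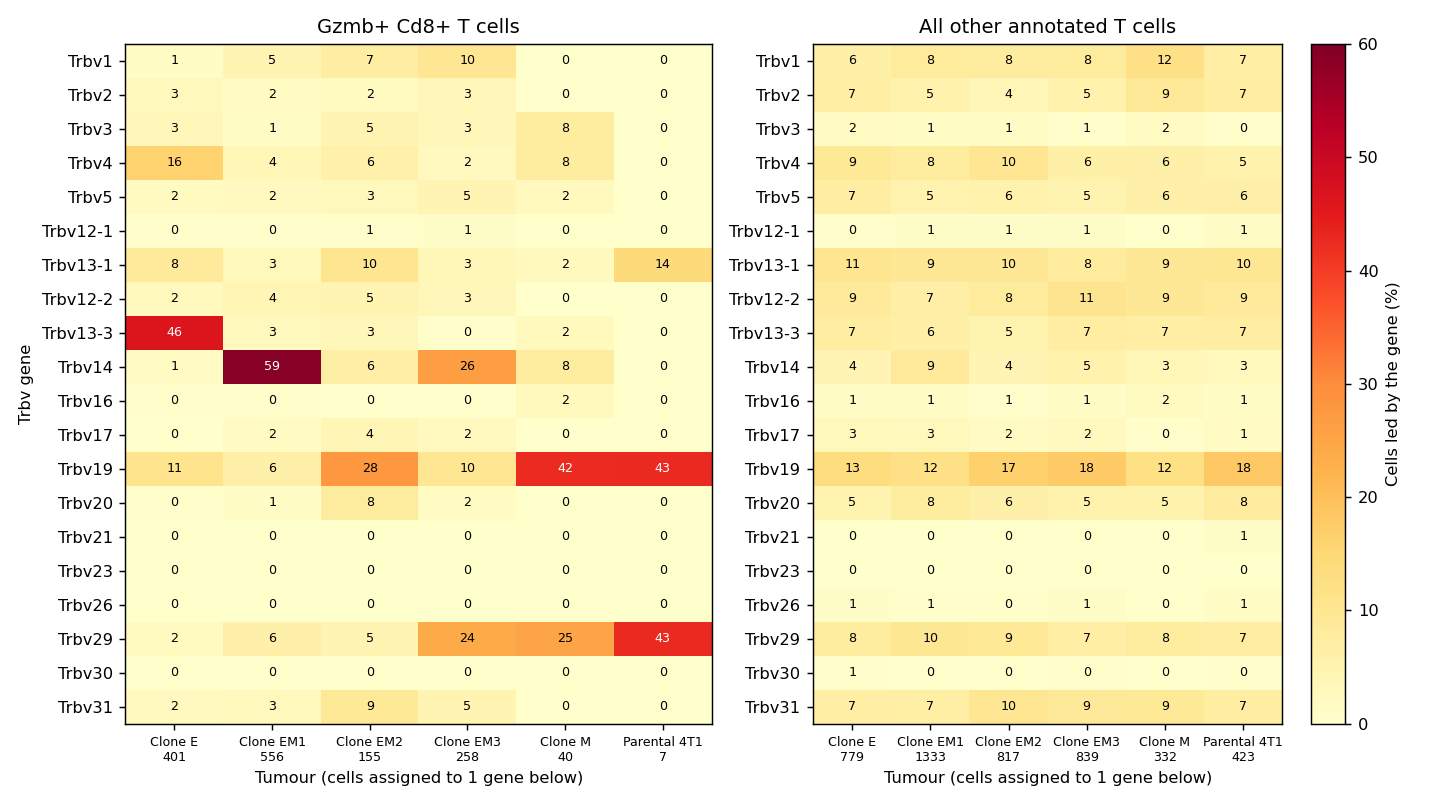
Percent of assigned cells led by each of the 20 Trbv genes (rows) in 6 tumours (columns, with the number of assigned cells), in Gzmb+ Cd8+ T cells on the left and all other annotated T cells on the right. Dark squares mark Trbv13-3 in Clone E (46.4%), Trbv14 in Clone EM1 (59.0%) and Trbv19 in Clone M (42.5% of 40 cells). No gene reached 20% in the other T cells. The Parental 4T1 column on the left rests on 7 cells, with Trbv19 and Trbv29 at 42.9% each.

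Second genes were also raised in some tumours. In Clone EM3 Trbv29 led 62 cells (24.0%, 18.9 to 29.7) against 6.91% of other T cells, nearly as many as Trbv14. In Clone M Trbv29 led 10 of 40 cells (25%, 12.7 to 41.2) against 7.53%. In Clone E Trbv4 led 64 cells (16%, 12.5 to 19.9) against 8.99%. Counting intervals of the difference from other T cells excluded 0 on the higher side for 2 genes in Clone E, 1 in Clone EM1, 2 in Clone EM2, 3 in Clone EM3 and 2 in Clone M. These include Trbv3 in Clone EM2 (4.52% of the class, 4.55% of its Lef1+ Cd8+ T cells) and in Clone EM3 (3.1% and 0.61%). Shares of 1 class sum to 100%, so a high leading gene lowers the shares of the others, and falls in share are not counted here. Among the cells that the leading gene did not lead, Trbv29 led 62 of 190 in Clone EM3 (32.6%, 26 to 39.8) against 7.3% of the other T cells taken the same way, and Trbv4 led 64 of 215 in Clone E (29.8%, 23.7 to 36.4) against 9.7%.

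The leading gene of one tumour did not stand out in every other. Trbv14 led 1.5% of Gzmb+ Cd8+ T cells in Clone E, against 4.24% of other T cells; it led 6.45% against 4.41% in Clone EM2 and 7.5% against 3.31% in Clone M. Trbv13-3 led 1 of 190 cells not led by Trbv14 in Clone EM3 (0.526%, 0.0133 to 2.9), against 7.67% of other T cells taken the same way. In Clone EM1, among cells not led by Trbv14, Trbv13-3 led 15 of 228 (6.58%, 3.73 to 10.6) against 6.89% of other T cells, and Trbv19 led 33 of 228 (14.5%, 10.2 to 19.7) against 13.3%. Trbv20 led 7 of 228 there (3.07%, 1.24 to 6.22) against 8.29% (6.8 to 9.98). It was the 1 gene of 19 with intervals apart in Clone EM1. Over all assigned cells there, Trbv20 led 1.61% of 62 Lef1+ Cd8+ T cells and 8.07% of CD4 T cells. The low share was thus not particular to the Gzmb+ Cd8+ class. In Clone E 2 of the 19 other genes were higher and 3 lower with intervals apart, in Clone EM3 2 were higher and 2 lower, and in Clones EM2 and M 1 each was higher and 0 lower. Trbv19 was the most frequent gene by cells in the other T cells of all 6 tumours, at 12.2 to 18.2%, and was thus already common outside the Gzmb+ Cd8+ class in Clones EM2 and M. Over the 4 members measured of the V-beta families that endogenous mammary tumour virus superantigens are known to delete in BALB/c mice (Trbv26, Trbv12-1, Trbv12-2 and Trbv16), 2.5 to 5.16% of Gzmb+ Cd8+ T cells were led by one in Clones E to M, against 13.6 to 22.6% of Lef1+ Cd8+ T cells and 8.51 to 12% of CD4 T cells. The leading gene lowers these raw shares. Among cells not led by it, the 4 genes led 26 of 228 in Clone EM1 (11.4%, 7.59 to 16.3) against 10.2% of other T cells, 12 of 215 in Clone E (5.58%) against 11.6%, 7.14% in Clone EM2 against 12% and 1 of 23 in Clone M against 13.1%, all with overlapping intervals. In Clone EM3 the intervals lay apart, at 10 of 190 (5.26%, 2.55 to 9.47) against 14.3% (12 to 17). Trbv12-2 made up most of these cells, and it had only 1.33 UMIs per positive cell and was often found beside another Trbv gene.

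The share of UMIs gave the same leaders with other sizes. Trbv14 held 2299 of 2914 Trbv UMIs (78.9%) in the Gzmb+ Cd8+ class of Clone EM1 and 706 of 1396 (50.6%) in Clone EM3. Trbv13-3 held 552 of 1361 (40.6%) in Clone E, and Trbv19 held 169 of 524 (32.3%) in Clone EM2 and 51 of 123 (41.5%) in Clone M. For Trbv14 the share of UMIs lay well above the share of cells. A cell positive for Trbv14 held 6.90 of its UMIs on average in Clone EM1, 10.1 in Clone EM3 and 10.6 in the 7 positive cells of Clone E, against 2.26 for Trbv13-3 and 1.68 for Trbv19 in Clone E. Trbv14 was also rich in CD4 T cells, with 3.34 UMIs per positive cell against 2.47 for Trbv19 and 1.72 for Trbv13-3. Trbv17 (3.19) and Trbv29 (2.96) were the next richest there. Genes may differ in how well they were captured, which was not measured, so these values do not rank their expression. The richest single Gzmb+ Cd8+ T cell held 31 Trbv14 UMIs, in Clone EM1.

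The evenness of use can be put into 1 number, the chance that 2 cells drawn from a class are led by the same gene. It was 26.2% in the Gzmb+ Cd8+ T cells of Clone E, 36.3% in Clone EM1, 11.8% in Clone EM2, 15.4% in Clone EM3 and 24.4% in Clone M. In the other T cells of the 6 tumours it was 7.74 to 8.91%. Lef1+ Cd8+ T cells, which carry the naive-associated factor Lef1, had 5.61 to 9.25% in the 5 tumours with at least 30 assigned cells, and no CD4 subtype with 30 assigned cells went above 9.98%. Cycling T cells (Mki67+ Cd8/Cd4) had 7.40 to 14.3%. The highest cycling value was that of Clone EM1, where Trbv14 led 38 of 114 cells (33.3%) and held 57.0% of Trbv UMIs. In Clone E the cycling cells were led most often by Trbv13-3, in 14 of 70 cells (20%), and in Clone EM2 by Trbv19, in 14 of 67 (20.9%). By cells, the gene that led the Gzmb+ Cd8+ class was thus also the most frequent among cycling cells in Clones E, EM1 and EM2, but by UMIs Trbv14 led the cycling cells of Clone E with 24.5%. In Clone EM3 the most frequent was Trbv29, the second gene of its Gzmb+ Cd8+ class, with 7 of 47 cells.

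**Figure D2:**
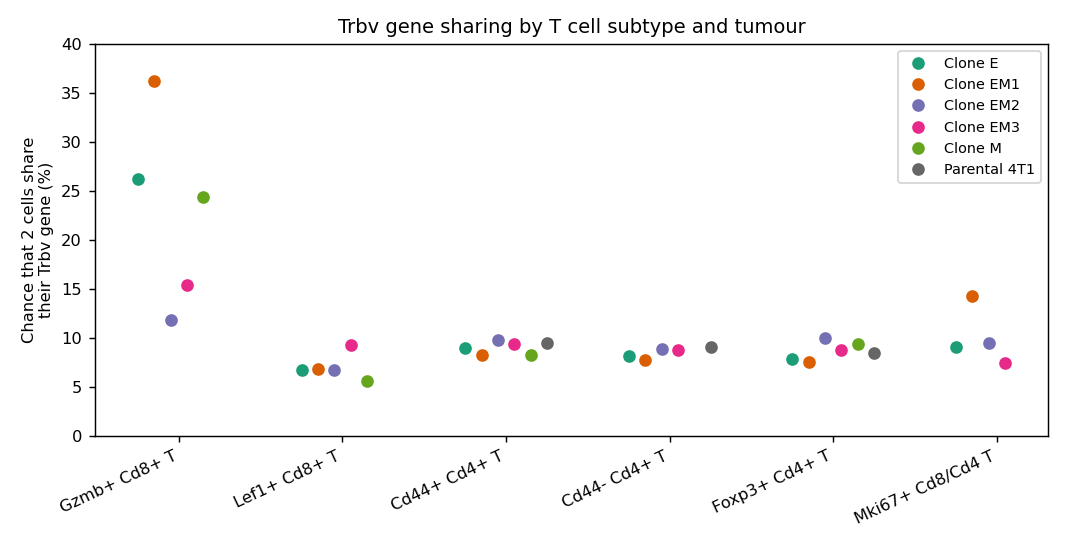
Chance (percent, y axis) that 2 cells of a T cell subtype (x axis) share their leading Trbv gene, 1 point per tumour with at least 30 assigned cells. The Gzmb+ Cd8+ class runs from 11.8 to 36.3%, and the other subtypes lie at or below 9.98% apart from the cycling cells of Clone EM1 at 14.3%.

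The Total libraries of the same tumours gave a second set of cells, chosen without the annotation by UMIs of Cd8a or Cd8b1, of Gzmb and of a Cd3 gene and no Cd4 UMI. Trbv13-3 led 171 of 506 such cells in Clone E (33.8%, 29.7 to 38.1). Trbv14 led 45 of 101 in Clone EM1 (44.6%, 34.7 to 54.8), Trbv19 led 13 of 67 in Clone EM2 (19.4%, 10.8 to 30.9) and Trbv19 led 14 of 31 in Clone M (45.2%, 27.3 to 64.0). The interval in Clone EM2 holds the 16.5% of its other T cells in the CD45 library. In Clone EM3 the order changed: Trbv29 led 17 of 94 cells (18.1%), Trbv19 led 16 and Trbv14 led 13 (13.8%, 7.57 to 22.5), although Trbv14 still held 39.2% of the Trbv UMIs. In Clone E Trbv13-1 led 119 cells (23.5%, 19.9 to 27.5), against 8.48% in the annotated CD45 class and 33 of 212 (15.6%, 11 to 21.2) by the same marker rule in the CD45 library. The 2 libraries come from 1 tumour, so the repeat checks the library and the choice of cells, not the tumour. The same rule by markers in the CD45 libraries, among annotated T cells, gave 37.7% for Trbv13-3 in Clone E, 40.6% for Trbv14 in Clone EM1 and 31.0% for Trbv19 in Clone EM2. In Clone EM3 it gave 19.4% for Trbv19, 16.5% for Trbv14 and 11.7% for Trbv29, and in Clone M 3 of 16 cells each for Trbv19 and Trbv29. By UMIs this rule moved 2 shares by over 1.5 times: Trbv19 held 53.6% in Clone EM2, and it held 9 of 100 UMIs in Clone M, where Trbv14 held 37.

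**Figure D3:**
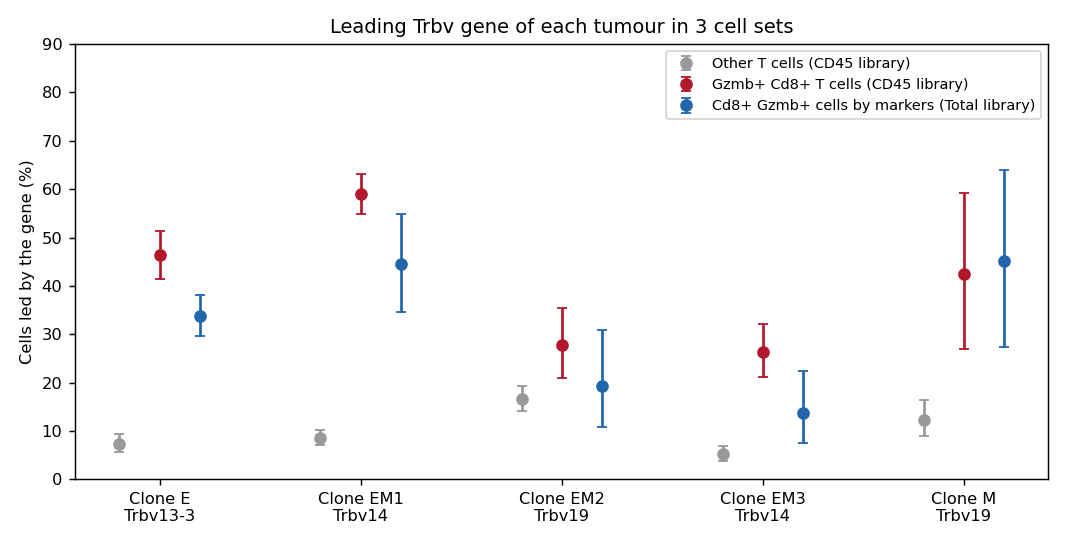
Percent of assigned cells led by the named gene (y axis) in each of 5 tumours (x axis) for other T cells and Gzmb+ Cd8+ T cells of the CD45 library and for cells chosen by markers in the Total library; bars are exact 95% intervals over cells. The gene drawn was chosen as the most frequent in the Gzmb+ Cd8+ class of that tumour, which by itself favours a high point there. In each tumour the Gzmb+ Cd8+ point lies above the point for other T cells, and the Total library point lies between the 2 except in Clone M, where it is 45.2% against 42.5%.

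Some cells held UMIs of 2 Trbv genes, and in Clone E these pairs were not scattered. There 162 of 458 Trbv-positive Gzmb+ Cd8+ T cells (35.4%) held 2 or more genes, against 17.8% of its other Trbv-positive T cells; in Clones EM1, EM2 and EM3 the class had 11.8 to 13.3%, and in Clone M 27.7%. In Clone E Trbv13-3 was found in 97 of 130 Gzmb+ Cd8+ T cells positive for Trbv19 (74.6%, 66.2 to 81.8). Among all Trbv-positive cells of that class it was found in 53.3%. It was also in 10 of 16 Trbv19-positive cycling T cells of that tumour (62.5%, 35.4 to 84.8). In its CD4 T cells it was found in 1 of 97 Trbv19-positive cells (1.03%, 0.0261 to 5.61) and in 7.04% of all Trbv-positive cells. The Total library of Clone E repeated this, with 92 of 131 cells (70.2%, 61.6 to 77.9), against 38.2% of all Trbv-positive cells there. In the Gzmb+ Cd8+ classes of Clones EM1, EM2 and EM3 no Trbv19-positive cell held Trbv13-3, of 36, 45 and 31 cells, and in Clone M 1 of 25 did; Trbv13-3 was rare in those classes (0.379 to 4.35% of Trbv-positive cells), so few such cells could occur. The exons of Trbv13-3 and Trbv19 printed above share 62.4% of their bases and no run longer than 14. The labels' protocols name a fixed-RNA kit, which counts by probes, and whether probes of one gene also counted the other was not tested.

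A second pair in Clone E was Trbv3 with Trbv13-1. Trbv13-1 was found in 33 of 42 Trbv3-positive Gzmb+ Cd8+ T cells (78.6%, 63.2 to 89.7) and in 72 of 89 such cells of the Total library (80.9%, 71.2 to 88.5), where Trbv13-1 was in 12.2% and 26.1% of all Trbv-positive cells. It was found in 0 of 10 in Clone EM1 and 0 of 9 each in Clones EM2 and EM3. In Clone M Trbv19 was found in 10 of 13 Trbv4-positive Gzmb+ Cd8+ T cells (76.9%, 46.2 to 95), an interval that holds its share among all Trbv-positive cells of the class (53.2%). In Clone EM3 it was found in 5 of 11 (45.5%, 16.7 to 76.6), against 11.7% of all Trbv-positive cells. In Clone E it was found in 0 of 65 (0 to 5.52%), against 28.4%. In Clones EM1 and EM2 it was found in 0 of 22 and 0 of 9. Trbv12-2 was found beside the leading gene in several tumours: 34 of its 46 positive cells in Clone E also held Trbv13-3, and 32 of 63 in Clone EM1 also held Trbv14. Of the cells with a Trbv UMI the leading gene was itself in 244 of 458 in Clone E and 333 of 567 in Clone EM1.

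**Figure D4:**
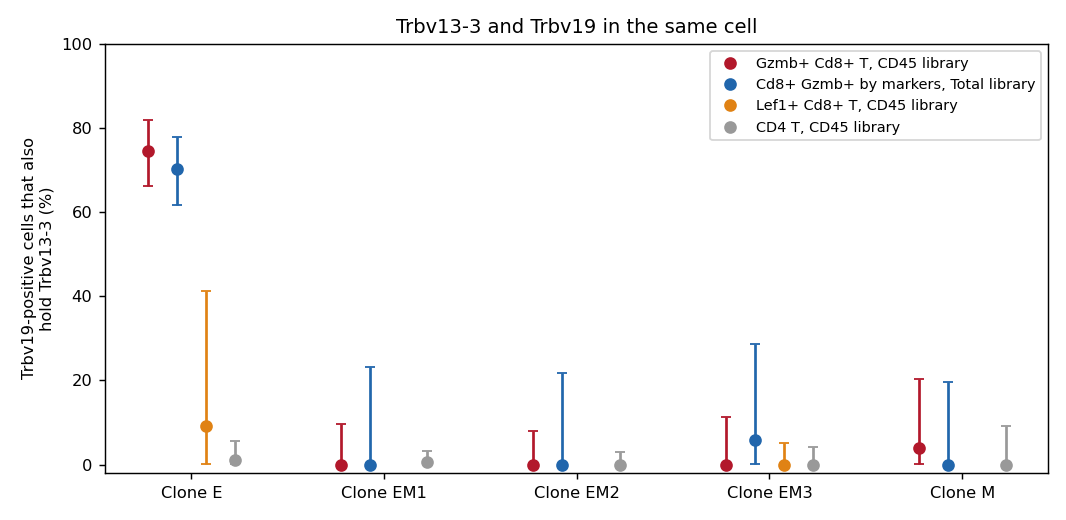
Percent of Trbv19-positive cells that also hold a Trbv13-3 UMI (y axis) in 5 tumours (x axis), for 3 classes of the CD45 library (Gzmb+ Cd8+, Lef1+ Cd8+ and CD4 T cells) and the marker-chosen cells of the Total library, where at least 10 cells were Trbv19-positive; bars are exact 95% intervals. Both Clone E sets with Cd8 and Gzmb stand at 70.2 to 74.6%, and the other points drawn are at or below 9.09%; cycling T cells, not drawn, are given in the text.

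In some tumours the cells led by 1 gene leaned to 1 constant gene. In Lef1+ Cd8+ T cells Trbc1 held 38.1 to 50.5% of the UMIs of Trbc1 and Trbc2 over the 6 tumours, and in CD4 T cells 40.9 to 50%. In Clone EM3 the cells led by Trbv14 held 44 Trbc1 and 375 Trbc2 UMIs (10.5% Trbc1, 7.73 to 13.8), and those led by Trbv29 held 294 and 62 (82.6%, 78.2 to 86.4). Of the Trbv14 cells 0 had Trbc1 alone and 41 had Trbc2 alone, while of the Trbv29 cells 22 had Trbc1 alone and 2 had Trbc2 alone. In Clone E the cells led by Trbv13-1 held 0 Trbc1 and 139 Trbc2 UMIs, those led by Trbv13-3 held 98 and 461 (17.5%, 14.5 to 20.9), and those led by Trbv4 held 150 and 70 (68.2%, 61.6 to 74.3). In Clone EM1 the cells led by Trbv14 held 373 and 1248 (23.0%, 21 to 25.1). The leading groups of the other tumours leaned less or held fewer UMIs: Trbv19-led cells held 70 and 109 in Clone EM2 (39.1%, 31.9 to 46.7), within the range of Lef1+ Cd8+ T cells, and 10 and 27 in Clone M (27%, 13.8 to 44.1). Smaller groups of Clone EM2 leaned more. Its 16 cells led by Trbv13-1 held 1 and 52 (1.89%), and its 12 led by Trbv20 held 37 and 11 (77.1%). Its 14 led by Trbv31 were near even, at 30 and 27. In the Total library of Clone E the 72 cells with Trbv3 and Trbv13-1 held 0 Trbc1 and 437 Trbc2 UMIs. The groups led by Trbv13-1 and by Trbv4 leaned less there than in the CD45 library. They held 33 and 656 (4.79%) and 145 and 127 (53.3%), and cells led by Trbv13-3 held 174 and 743. In the Total library of Clone EM3 cells led by Trbv14 held 13 and 147, and those led by Trbv29 held 129 and 55 (70.1%). Trbv14-led cells held 72 and 298 in that of Clone EM1 (19.5%). Trbc1 and Trbc2 are nearly identical over long stretches, so the absolute split depends on how the authors' counting treated them. The intervals are over UMIs, several of which come from 1 cell.

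**Figure D5:**
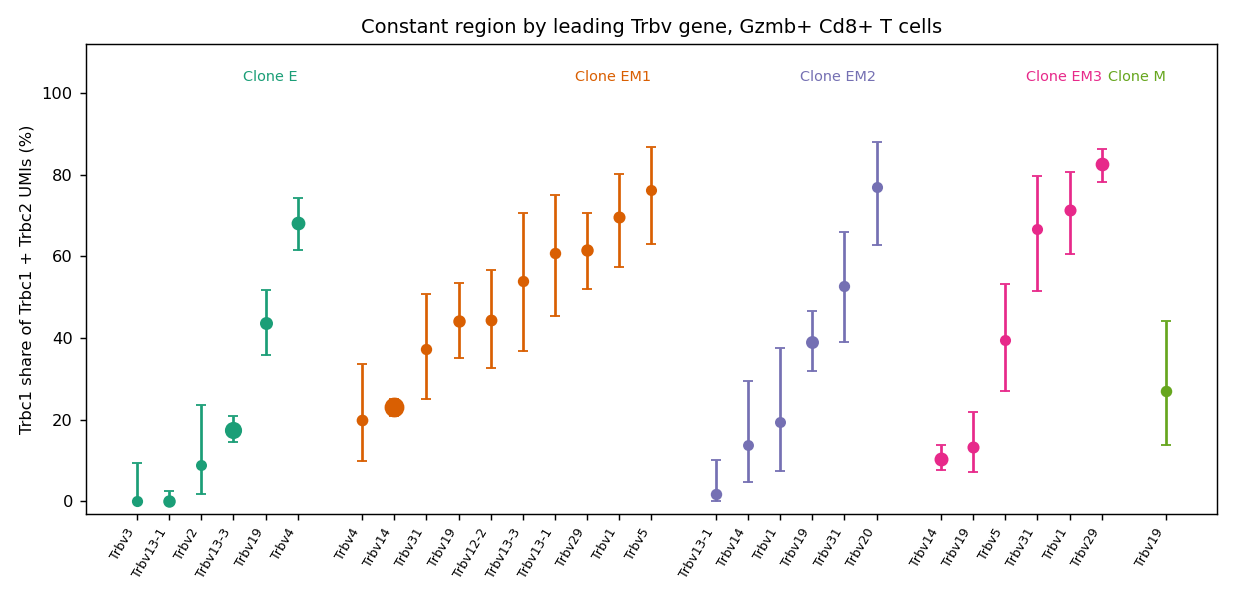
Trbc1 share (percent, y axis) of Trbc1 plus Trbc2 UMIs in Gzmb+ Cd8+ T cells grouped by leading Trbv gene (x axis) and tumour (colour), for groups of at least 10 cells and 30 UMIs; bars are exact 95% intervals and larger points hold more cells. Within Clone EM3 the groups run from 10.5% for Trbv14 to 82.6% for Trbv29.

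Against all genes, the members were compared between Gzmb+ Cd8+ T cells and the other T cells of each tumour as a log2 ratio of (CPM + 10), for genes of at least 10 CPM in either class, and called past a 2-fold difference. In Clone E 2 of 15 members tested were higher (background 2.78% of 8909 genes) and 8 lower (5.22%). Of these 8, Trbv5, Trbv16, Trbv17 and Trbv20 were at 1.58 to 7.11 CPM in the Gzmb+ Cd8+ class. They passed the filter only through the other T cells. In Clone EM1 1 of 16 was higher (3.96%) and 3 lower (5.02%), in Clone EM2 3 of 15 higher (3.6%) and 0 lower (6.38%), and in Clone EM3 3 of 15 higher (2.73%) and 2 lower (4.13%). Of the lower calls in Clone EM3, Trbv13-3 passed the filter only through the other T cells (6.44 against 48.3 CPM). In Clone M 5 of 14 were higher (6%) and 5 lower (12.4%), but 1 UMI there was worth 9.48 CPM, so calls near the filter rest on about 1 UMI. Trbv16, called higher there, had 5 UMIs in the class, all in 1 cell. Trbv1, Trbv2, Trbv20 and Trbv31, all called lower there, had 0 UMIs in the class. They passed the filter only through the other T cells (49.1 to 113 CPM). The median log2 ratio over the tested members was -1.0 in Clone E, -0.53 in Clone EM1, 0.20 in Clone EM2, -0.24 in Clone EM3 and -0.44 in Clone M, while over all genes tested it lay between -0.03 and 0.02. A T cell usually carries 1 productive beta chain, so a high leading gene also lowers the levels of the other members. The lower calls and the medians are therefore not read as a separate fall of the family. Trbv14 rose from 305 to 2514 CPM in Clone EM1 (log2 ratio 3.0) and from 101 to 909 CPM in Clone EM3 (3.05), and Trbv13-3 rose from 84.4 to 436 CPM in Clone E (2.24). Trbv19 rose from 229 to 534 CPM in Clone EM2 (1.19) and from 143 to 484 CPM in Clone M (1.69). Trbv3 was also called higher in Clones E, EM2, EM3 and M, but in Clone EM3 it passed the filter only through the Gzmb+ Cd8+ class (8.85 CPM in other T cells), and in Clone M its level rests on 4 UMIs. By cells, Trbv3 led 3.24% of Gzmb+ Cd8+ and 4.27% of Lef1+ Cd8+ T cells in Clone E. These shares were 4.52 and 4.55% in Clone EM2, 7.5 and 7.32% in Clone M, and 3.1 and 0.61% in Clone EM3. Outside Clone EM3 the rise was thus not particular to the Gzmb+ Cd8+ class.

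Genes of the rest of the receptor machinery were read in the same way. Over all genes tested, 2.78%, 3.96%, 3.6%, 2.73% and 6% were past 2-fold higher in Clones E to M. Those past 2-fold lower were 5.22%, 5.02%, 6.38%, 4.13% and 12.4%. Of the 12 genes of the CD3 chains, coreceptors and proximal signalling, all tested, 3 were past 2-fold higher in Clones E, EM1 and EM2 and 2 in Clones EM3 and M. Cd8a and Cd8b1 were among them in each tumour and belong to the definition of the class, and Cd3g, a CD3 chain, was the third in Clones E (1.15), EM1 (1.27) and EM2 (1.36). Cd4 was the gene past 2-fold lower in Clones E, EM2 and M. Of the 7 constant genes 1 was past 2-fold higher and 1 lower in Clones E, EM1 and M, 0 and 1 in Clone EM2, and 1 and 2 in Clone EM3, with 7 tested in Clone E and 6 in the others. Trdc, which marks a class among the other T cells, was the one lower in each, at 0 to 7.65 CPM against 27.7 to 76.7 CPM, and Tcrg-C4 was the second in Clone EM3 (-1.37). Trdc in each tumour and Tcrg-C4 in Clone EM3 (3.86 against 25.8 CPM) passed the filter only through the other T cells. Tcrg-C2, a gamma constant gene with close copies that the authors' counting could split, was higher in Clones E (1.16), EM1 (2.07), EM3 (1.39) and M, where it passed the filter only through the Gzmb+ Cd8+ class (28.5 against 9.2 CPM). Trac, the alpha constant gene, had log2 ratios of 0.08 to 0.41 and Trbc2 of 0.01 to 0.61, all within the 2-fold limit. Trbc1 was at -0.89 in Clone E. Of the 6 receptor signalling response genes, all tested, 2 were past 2-fold higher and 1 lower in Clones E and EM1, 1 higher and 1 lower in Clones EM2 and EM3, and 0 higher and 3 lower in Clone M. Pdcd1, the PD-1 receptor, was past 2-fold higher in Clones E, EM1, EM2 and EM3, and Nr4a1, an early response gene, was past 2-fold lower in Clones E, EM1, EM2, EM3 and M, with log2 ratios from -1.78 to -2.30. Tnfrsf9, the costimulatory receptor 4-1BB, was past 2-fold higher in Clones E (1.31) and EM1 (1.63). In Clone M Tox, a factor of chronically stimulated T cells, was lower (-1.33), and Egr2, another early response gene, had 0 CPM in the class against 30.7 CPM in other T cells. Egr2 passed the filter there only through the other T cells. The upper limit for 0 UMIs in that class is 35 CPM, so its call as lower does not show a fall. The recombination genes Rag1, Rag2 and Dntt did not reach 10 CPM in either class of these 5 tumours.

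Within the Gzmb+ Cd8+ class, cells led by the leading gene were set beside the other assigned cells of the same tumour. Their depths were close in Clone E (median 2025.5 and 2045 UMIs) and Clone EM3 (2351 and 2324), and the led cells were deeper in Clone EM1 (1327.5 and 1101). Gzmb was lower in the led cells of Clone E (680.2 against 1302 CPM), Clone EM1 (639 against 1161 CPM) and Clone EM3 (271 against 674 CPM), with counting intervals apart, and in Clone M there were 2 UMIs in 17 led cells against 58 in 23 others. In Clone EM2 the values were 1334 and 938 CPM, with overlapping intervals. Gzma, another granule protease, was lower in the led cells of Clone E (58.0 against 287 CPM) and Clone EM1 (31.0 against 542 CPM) and higher in those of Clone EM2 (195 against 25.5 CPM, from 12 and 4 UMIs). In Clone M 0 Gzma UMIs were found in led cells against 26 in the others, and in Clone EM3 there were 3 and 25. Prf1, which forms pores in target cells, was higher in those led by Trbv14, at 364 against 203 CPM in Clone EM1 and 565 against 337 CPM in Clone EM3. Nkg7, a protein of cytotoxic granules, was higher in the led cells of Clone E (3209 against 2752 CPM) and Clone EM1 (2784 against 1847 CPM), with overlapping intervals in the other 3 tumours, and Ifng, the cytokine interferon gamma, had overlapping intervals in all 5. Tox was higher in the led cells of Clone E (223 against 138 CPM), Clone EM1 (273 against 146 CPM) and Clone EM3 (283 against 151 CPM), and in Clone EM2 the values were 146 and 166 CPM. In Clone M there were 2 and 1 Tox UMIs. Tnfrsf9 was higher in the led cells of Clone E (4135 against 3114 CPM), Clone EM1 (4646 against 2382 CPM) and Clone M (3625 against 882 CPM) and lower in Clone EM2 (2082 against 2821 CPM), and in Clone EM3 the intervals overlapped (3767 and 3507 CPM). Pdcd1 was lower in the led cells of Clone EM3 (2776 against 3293 CPM) and higher in those of Clone M (3663 against 1663 CPM), with overlapping intervals in Clones E, EM1 and EM2. Nr4a3, an early response gene, was higher in the led cells of Clone EM3 (692 against 500.2 CPM) and had overlapping intervals in the other 4 tumours, as Nr4a1 and Egr2 had in all 5. Of 5 naive-associated genes 1 was lower in the led cells of Clone E, 3 in Clone EM1 and 2 in Clone EM3, and 2 were higher in Clone M. Of 3 proliferation genes 1 was lower in Clone EM1. Of the 12 signalling genes, 1 was lower and 1 higher in Clone E, 2 and 2 in Clone EM1, and 2 higher in Clone EM3. The share of all genes with intervals apart is not given here, so none of these genes is shown to be unusual. These intervals cover counting only, and the cells of a class come from 1 tumour and were annotated from their expression. Cd4 UMIs moved with the led cells too, at 23.2 against 146 CPM in Clone E and 387 against 186 CPM in Clone EM1, and their part in these differences was not tested.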

How the data were processed

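Single-cell RNA counts of 12 libraries (a CD45 and a Total library of each of 6 tumours) were used. The authors deposited raw UMI counts per gene and cell with cell annotations; Cell Ranger and the mm10 build are named in the submitters' processing notes, without versions or cell filters. The labels' protocols name both a fixed-RNA kit and 3′ reagents, and probe sequences were not used here. CD45 library medians were 1557 to 3453 UMIs per cell. Likely doublets were called from simulated mixtures (scikit-learn 1.9.0) and left out, 2733 of 115612 cells. UMIs were summed per class and tumour with Python 3.11.15, numpy 2.4.6, pandas 2.3.3 and scipy 1.17.1; with 1 tumour per group no test was made. Named genes were the gene with the highest share of Trbv UMIs in each T subtype and tumour with 30 such UMIs or more, any gene with 15% or more in a Gzmb+ Cd8+ class, and fixed gene lists; other genes, co-detected pairs included, were chosen after their values were seen. The members and lists were chosen with earlier results of these data known. The scripts were tested on simulated data.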

Additional observations from a re-analysis of the deposited data

Results flagged for a closer look

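By raw share of cells led, the same gene was higher in Gzmb+ Cd8+ T cells than in other T cells of one tumour and lower in another, with counting intervals of each difference apart from 0; the difference between tumours was not tested, since each group is 1 tumour. For Trbv13-3 the difference in the share of cells led was 39.1 percentage points in Clone E, -3.60 in Clone EM1 and -6.88 in Clone EM3. For Trbv14 it was 50.4 in Clone EM1, 21.1 in Clone EM3 and -2.74 in Clone E. For Trbv19 it was 11.2 in Clone EM2, 30.2 in Clone M, -6.22 in Clone EM1 and -7.56 in Clone EM3. Shares sum to 100%, so part of each fall follows from the rise of the leading gene. Among cells not led by the leading gene, Trbv13-3 led 6.58% in Clone EM1 against 6.89% of other T cells, Trbv19 led 14.5% there against 13.3%, Trbv19 led 13.7% in Clone EM3 against 18.6% with overlapping intervals, and Trbv14 led 2.79% in Clone E against 4.57%, also overlapping. Trbv13-3 in Clone EM3 was the one of these falls whose intervals stayed apart, at 0.526% against 7.67%.

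Cells annotated T/Myeloid Hybrid1, which no comparison above used, differed between tumours in their highest gene, which also depended on the doublet calls. After doublet calls were left out, Trbv13-3 held 24.4% of 135 Trbv UMIs in Clone E, Trbv14 held 44.1% of 59 in Clone EM1 and Trbv19 held 19.6% of 56 in Clone EM2. Trbv19, not Trbv14, was highest in Clone EM3 (40 of 130), Trbv14, not Trbv19, in Clone M (13 of 17), and Trbv12-2 in the Parental 4T1 tumour (3 of 9). With doublet calls kept, which were most of these cells, the shares in Clones E, EM1 and EM2 were 25.2%, 61.8% and 23.4%. The highest gene was then Trbv14 in Clone EM3 (73 of 322, 22.7%), Trbv14 in Clone M (13 of 48) and Trbv13-1 in the Parental 4T1 tumour (15 of 37). In cells annotated T/Myeloid Hybrid2, without doublet calls, the highest gene was Trbv13-3 in Clone E (23 of 95), Trbv14 in Clone EM1 (20 of 61), Trbv19 in Clone EM2 (14 of 57), Trbv14 in Clone EM3 (43 of 104, 41.3%), Trbv29 in Clone M (22 of 50) and Trbv19 in the Parental 4T1 tumour (9 of 34). The same genes were highest in Hybrid2 cells with doublet calls kept.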

How the results depend on the processing

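Keeping doublet calls, leaving out the cell richest in the leading gene and taking off free RNA each moved the 5 leading shares of UMIs (40.6% in Clone E, 78.9% in Clone EM1, 32.3% in Clone EM2, 50.6% in Clone EM3, 41.5% in Clone M) by less than their counting interval. As shares of cells, they were 46.4%, 59.0%, 27.7% and 26.4% in Clones E, EM1, EM2 and EM3. With entries of 2 or more UMIs they were 43.4%, 83.4% and 53.7% in Clones E, EM1 and EM3. By the marker rule in the CD45 libraries they were 27.6%, 62.9%, 53.6%, 41.1% and 9.00% in Clones E to M, and in the Total libraries 28.4%, 72.4% and 39.2% in Clones E, EM1 and EM3. Alternatives chosen after seeing the data gave 77.0% in Clone EM1 without shared droplets, 80.6% in Clone EM1 and 36.7% in Clone EM2 without cells of 2 or more Trbv genes, and 36.5%, 76.5%, 39.3%, 43.9% and 29.1% in Clones E to M with cycling CD8 T cells added. The chance that 2 cells share their gene was 49.5% in Clone EM1 with cells of 2 or more UMIs. Thinned shares of cells with a Trbv UMI were 61.7% and 54.7% (Gzmb+ Cd8+ and other T) in Clone E, 68.7% and 50.9% in Clone EM3, 61.8% and 46.9% in Clone M, and 85.4% for the Gzmb+ Cd8+ class of Clone EM1. With a pseudocount of 1 CPM, the genes past 2-fold higher numbered 414, 588, 615, 470 and 857 in Clones E to M and those lower 755, 735, 944 and 646 in Clones E to EM3. With 50 CPM the genes higher were 105, 148, 114, 102 and 60, and those lower 144, 139, 133, 121 and 184. With a filter at 50 CPM those lower were 271, 273, 287, 216 and 409, and those higher 299 in Clone M. The causes of these shifts were not tested. Alternatives for Trav genes were not run. No fit with a replicate block was made, since the labels give 1 tumour per group. Paired by tumour, the chance that 2 cells share their gene was higher in Gzmb+ Cd8+ than in other T cells in 5 of 5 tumours, by 2.93 to 28.5 percentage points, given as a description with no test. The 8 Parental 4T1 cells and the 63 of Clone M limit what their classes can show.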
